A study of Bos taurus with 6 samples.

Results

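Genes of the ubiquitin-conjugating E2 enzymes were examined in bovine blastocysts and were chosen by their symbol alone, as every row whose gene name begins with UBE2 followed by a letter. The rule found 34 of 36075 rows, under 33 symbols. The deposited descriptions name 33 of these rows as ubiquitin conjugating enzyme E2 genes. The control blastocysts (3 libraries) developed from bovine oocytes matured in vitro without melatonin (MT), and the MT-treated blastocysts (3 libraries) from oocytes that had 1e-07 mol/L MT in the medium during the 22 h of maturation. Both groups came from slaughterhouse ovaries and shared the same fertilization and culture, and each library was a pool of 3 blastocysts. Replicates within a group are stated to come from separate in vitro production runs. The treatment was given to the oocyte, whereas RNA was measured in the embryo. Fewer cells of one type and less RNA per cell cannot be told apart in pooled embryos.

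Ubiquitin is passed along a chain of enzymes. An E1 enzyme activates it, an E2 enzyme carries it on a catalytic cysteine, and an E3 ligase directs its transfer to a substrate. The E2 decides in large part which kind of chain is built, and thereby whether a protein is sent to the proteasome or is marked for signaling or DNA repair. SUMO, NEDD8 and ISG15, which are small proteins related to ubiquitin, have E2 enzymes of their own. Cell division, the maternal-to-embryonic turnover of proteins and the quality control of the endoplasmic reticulum (ER) all depend on these enzymes.

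Expression was given as TPM, a unit in which read numbers are divided by gene length and scaled to a common total, so levels of different genes can be set side by side. Differences below are MT-treated minus control on the log2(TPM + 1) scale with their standard error, and adjusted p-values are from limma with the Benjamini-Hochberg method over the 11953 genes with at least 1 TPM in at least 3 libraries. Fold values of single genes are ratios of mean TPM without the added 1, so they can exceed the log2 difference beside them. The 2-fold threshold was set on the log2(TPM + 1) scale. TPM carries no read numbers, and the depth of the libraries was not used here. The control libraries had 8854 to 8953 genes above 0 and the MT-treated libraries 14372 to 14408, a difference that runs along with the groups and bears on every E2 gene listed at 0 in control. Of 8 oocyte markers 5 were at 0 in all 6 libraries (GDF9, ZP2, ZP3, ZP4 and NLRP5), BMP15 and ZAR1 stayed below 1 TPM, and OOEP averaged 47.7 TPM in control and 21.3 TPM after MT treatment. Of 9 cumulus and granulosa markers 5 were at 0 in all 6 (FOXL2, HAS2, NR5A2, PTX3 and TNFAIP6), while CYP11A1 averaged 78.7 and 82.4 TPM and FSHR 18.2 and 16.0 TPM. The epithelial keratins KRT8 and KRT18 were abundant in both groups, while CDX2, NANOG and PDGFRA, which mark trophectoderm, inner cell mass and hypoblast, were at 0 in control and averaged 16.1, 8.68 and 23.2 TPM after MT treatment. The other inner cell mass markers went both ways, with KLF4 at 18.1 and 83.8 TPM, SOX2 at 0.0067 and 6.54 TPM, POU5F1 at 190 and 193 TPM, SALL4 at 56.8 and 26.6 TPM and LIN28B at 1.21 and 0.420 TPM, and the hypoblast marker GATA4 was at 0 in all 6. The summed TPM of 8 trophectoderm markers ranged from 11440 to 11782 in control and from 10724 to 11087 in MT-treated libraries, with KRT8, its largest part, at 8695 and 6905 TPM (higher after median centring). With deposited TPM, KRT8 was the only 1 of the 8 called lower, and 7 were called higher (34.1% and 61.6% of all tested genes). Among the higher ones, KRT18 had 2766 and 3654 TPM, GATA2 7.07 and 49.1 TPM and PAG2 104 and 222 TPM. CDX2 could enter the test only by being higher in MT-treated libraries. The summed TPM of 5 hypoblast markers ranged from 204 to 208 in control and from 514 to 517 in MT-treated libraries, that of 6 inner cell mass markers from 264 to 268 and from 316 to 321, and that of 7 blood and fibroblast markers from 32.8 to 35.0 and from 163 to 187. FN1 was the largest part of the hypoblast sum, at 206 and 461 TPM, and SOX17 stayed below 1 TPM. HBA was the largest part of the blood and fibroblast sum, at 33.9 and 134 TPM, while PTPRC, CD14 and COL1A1 were at 0 in all 6. The part of these shifts in the E2 results was not tested.

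Most E2 genes were detected, and the sum over the family was smaller in MT-treated blastocysts with deposited TPM. Of the 34 rows, 29 were tested, 2 were detected below the level required for testing (UBE2O among them), and UBE2L6, UBE2QL1 and UBE2U were listed at 0 in every library. All E2 rows together reached 3878, 3872 and 3882 TPM in control and 2978, 3014 and 2997 TPM in MT-treated libraries. The log2 ratio of the mean sums was -0.37, smaller in size than the 0.48 that median centring adds, so the direction of the sum depends on the scaling. Of the 29 tested rows, 16 were lower (55.2%) and 11 were higher (37.9%) in MT-treated blastocysts, whereas among all tested genes 34.1% were lower and 61.6% higher. Calls in either direction covered 93.1% of the E2 rows and 95.7% of all tested genes, so a call by itself sets no E2 gene apart. The split between the directions depended on scaling. After median centring on the 5988 genes that had at least 1 TPM throughout, which adds 0.48 to every difference, 17 E2 rows were higher and 12 lower, against 70.4% and 25.4% of all tested genes. With quantile normalization 15 were higher and 14 lower, against 55.3% and 38.5%. Of the 11 higher rows, UBE2D4, UBE2E2, UBE2Q1, UBE2R2, UBE2W and UBE2Z reached 1 TPM only in MT-treated libraries, so they could enter the test only by being higher there, and no p-value is given for them.

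The median difference of the tested E2 genes was -0.12, against 1.12 over all tested genes. Genes at 0 in control made up 33.8% of all tested genes and 5 of the 29 E2 genes (17.2%), and such genes could be tested only by being higher in MT-treated libraries. Over the 24 E2 genes above 0 in all libraries the median was -0.41, against -0.19 over the 6925 tested genes of that kind. At a difference of at least 2-fold, 7 E2 genes were lower (24.1%, against 19.6% of all tested genes) and 7 were higher (24.1%, against 51.0%). The 2 groups did not overlap for 28 of the 29 rows, against 96.1% of all tested genes, and UBE2T was the exception. For 1 gene taken alone, 3 against 3 libraries allow an exact permutation test (two-sided) no p-value below 0.1.

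**Figure D1:**
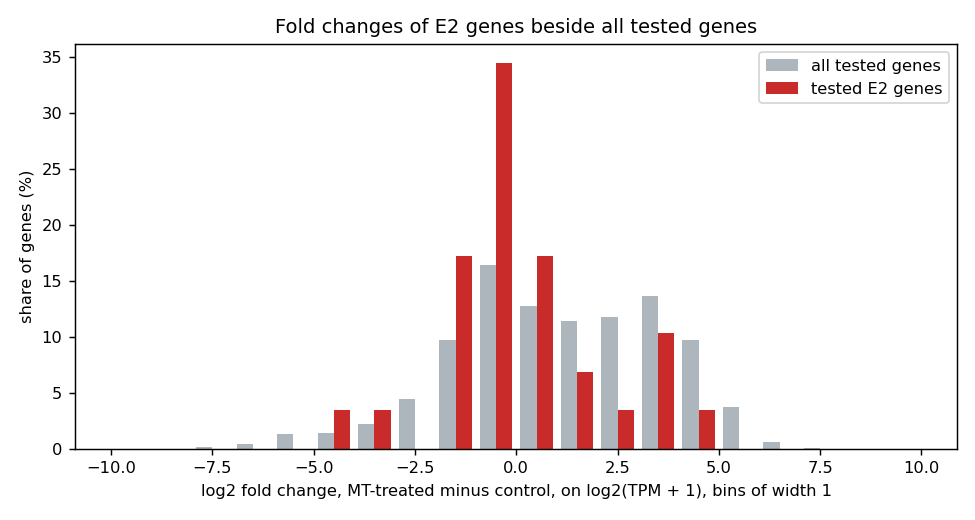
Share of genes (vertical axis, %) by difference between MT-treated and control blastocysts on the log2(TPM + 1) scale (horizontal axis, bins of width 1), for all 11953 tested genes (grey) and the 29 tested E2 genes (red). The bin just below 0 held 34.5% of the E2 genes and 16.4% of all tested genes.

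Levels of the E2 genes were close between replicates. Over the 21 E2 genes with a control mean of at least 20 TPM, the coefficient of variation between control libraries ranged from 0.428% to 6.02% with a median of 1.87%, and over 20 genes in the MT-treated libraries it ranged from 0.740% to 4.89% with a median of 2.52%. The 5 most abundant E2 genes over the 6 libraries were UBE2D3, UBE2C, UBE2L3, UBE2S and UBE2K, although UBE2B and UBE2E3 exceeded UBE2K in control. Together they held 54.6% ± 0.311 of the summed E2 TPM in control and 61.8% ± 0.115 after MT treatment (SD, n = 3 each). UBE2D3 led in control with 21.8% ± 0.234 of that sum and UBE2C in MT-treated blastocysts with 21.6% ± 0.447 (SD, n = 3 each).

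**Figure D2:**
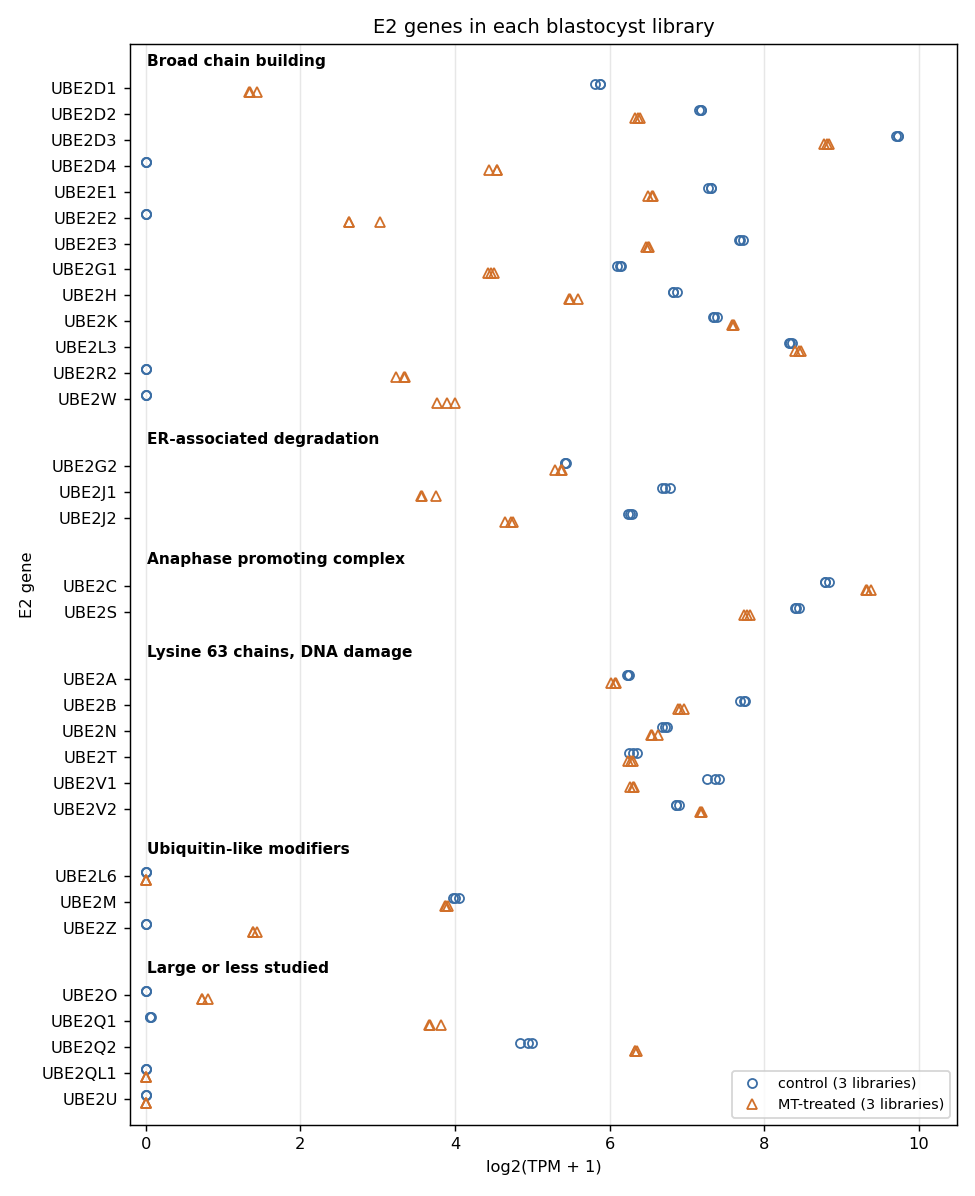
Level of the E2 genes described here in every library as log2(TPM + 1), grouped by role, with circles for the 3 control and triangles for the 3 MT-treated libraries. UBE2D1 and UBE2J1 were far to the left in MT-treated libraries, and UBE2D4, UBE2E2, UBE2R2, UBE2W and UBE2Z were at 0 in control.

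The largest role group holds the E2 enzymes that work with many E3 ligases and build chains for the proteasome, and here 7 of 13 genes were lower and 6 higher (34.1% and 61.6% of all tested genes). UBE2D3, a general partner of RING ligases, had 834, 849 and 850 TPM in control and 437, 455 and 448 TPM after MT treatment. It fell 1.89-fold (log2 difference -0.92 ± 0.02, limma adjusted p = 2.40e-08), and no MT-treated library reached a control value. UBE2D2, its close relative, fell from 143 ± 1.24 to 81.5 ± 1.93 TPM (SD, n = 3 each). UBE2D1 showed the steepest fall of the tested E2 genes, from 57.9, 54.9 and 57.6 TPM to 1.54, 1.71 and 1.52 TPM. That was 35.7-fold lower (log2 difference -4.48 ± 0.04, limma adjusted p = 1.21e-09). UBE2D4 went the opposite way, at 0 in every control library and at 20.8, 22.2 and 22.4 TPM in the MT-treated ones. The proteins of the UBE2D genes are nearly identical and their transcripts resemble each other, so reads may be shared among them and the single values are uncertain, as they are for the UBE2E genes, UBE2A with UBE2B, and UBE2V1 with UBE2V2. The UBE2D genes summed to a mean of 1044 TPM in control and 552 TPM in MT-treated blastocysts.

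The UBE2E genes showed the same kind of pattern, with the abundant members lower and the scarce member detected only in MT-treated libraries. UBE2E3 gave 211, 203 and 206 TPM in control against 90.4, 89.7 and 87.6 TPM, a 2.31-fold fall (log2 difference -1.20 ± 0.02, limma adjusted p = 1.56e-08). UBE2E1 fell from 156 ± 2.31 to 91.8 ± 2.43 TPM (SD, n = 3 each). UBE2E2 was listed at 0 throughout control, against 5.20, 7.14 and 5.17 TPM after MT treatment. UBE2G1, which extends ubiquitin chains, fell 3.27-fold from 67.1, 70.1 and 69.6 TPM to 21.0, 21.7 and 20.5 TPM (log2 difference -1.66 ± 0.03, limma adjusted p = 1.95e-08). UBE2H, the partner of the CTLH ligase complex, fell 2.52-fold from 116, 112 and 112 TPM to 43.7, 47.4 and 43.5 TPM (log2 difference -1.32 ± 0.04, limma adjusted p = 1.64e-07). For all of these falls, including UBE2D1 to UBE2D3, the direction was the same under median centring and quantile normalization.

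In contrast, UBE2L3 and UBE2K rose slightly and 2 further genes appeared from 0. UBE2L3, which serves HECT and RBR ligases, had 327, 321 and 319 TPM in control and 350, 354 and 335 TPM in MT-treated blastocysts, a rise of 1.07-fold (limma adjusted p = 0.00641). UBE2K, which elongates existing chains, had 167, 162 and 160 TPM and 193, 195 and 190 TPM, a rise of 1.18-fold (limma adjusted p = 4.998e-05). Both rises were smaller than the shift of 0.48 between scalings and kept their direction under both. UBE2R2, a partner of cullin ligases, was at 0 in all control libraries and at 9.17, 8.43 and 9.19 TPM after MT treatment. UBE2W, which attaches ubiquitin to the amino terminus of proteins, was likewise at 0 and then at 12.7, 13.9 and 14.99 TPM.

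Of the 3 E2 genes of ER-associated degradation, which removes misfolded proteins from the ER, UBE2J1 and UBE2J2 were lower in MT-treated blastocysts, and UBE2G2 was lower by a small difference that reversed under both scalings (34.1% of all tested genes were lower). UBE2J1, anchored in the ER membrane, had 102, 104 and 109 TPM in control and 10.8, 10.95 and 12.4 TPM in MT-treated libraries. It fell 9.21-fold (log2 difference -3.10 ± 0.06, limma adjusted p = 1.79e-08). UBE2J2, the other membrane-anchored member, fell 3.01-fold from 75.6, 76.9 and 74.8 TPM to 25.9, 24.1 and 25.5 TPM (log2 difference -1.55 ± 0.03, limma adjusted p = 3.12e-08). The values of both genes were lower in every MT-treated library than in any control library, and remained so with a difference of at least 2-fold under median centring and quantile normalization. UBE2G2, a soluble E2 that AUP1 recruits to the ER, differed little, at 42.1 ± 0.180 and 39.8 ± 1.297 TPM (SD, n = 3 each). Its call (log2 difference -0.08 ± 0.03, limma adjusted p = 0.0408) was lost when any 1 control library was left out, with an adjusted p of 0.0805 to 0.101, and its direction was reversed under both scalings.

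UBE2C and UBE2S work in turn on the anaphase promoting complex, UBE2C placing the first ubiquitins on mitotic substrates and UBE2S lengthening the chains, and their transcripts moved in opposite directions. UBE2C had 442, 442 and 457 TPM in control and 637, 643 and 663 TPM in MT-treated libraries, a 1.45-fold rise (log2 difference 0.53 ± 0.02, limma adjusted p = 7.37e-07). UBE2S had 337, 339 and 347 TPM and 224, 213 and 219 TPM, a 1.56-fold fall (log2 difference -0.64 ± 0.02, limma adjusted p = 5.13e-07). Both directions were kept under both scalings. Of the complex's catalytic subunits, ANAPC11 fell from 210 ± 6.99 to 132 ± 6.58 TPM and ANAPC2 from 20.4 ± 0.382 to 2.04 ± 0.2 TPM (SD, n = 3 each). Both of these falls kept their direction under both scalings.

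Of the 6 genes for signaling chains and DNA damage, 4 were lower (2 of them, UBE2A and UBE2N, reversed under both scalings), 1 was higher and UBE2T did not pass the test, while 34.1% of all tested genes were lower and 61.6% higher. UBE2N forms its chains only together with UBE2V1 or UBE2V2, E2 variants that lack the catalytic cysteine. UBE2V1 fell 2.09-fold, from 169, 164 and 152 TPM to 75.7, 79.0 and 78.3 TPM (log2 difference -1.05 ± 0.04, limma adjusted p = 7.59e-07). UBE2V2 instead rose from 116 ± 1.54 to 144 ± 1.07 TPM (SD, n = 3 each), so the more abundant of the 2 variants was UBE2V1 in control and UBE2V2 in MT-treated blastocysts. UBE2N itself was near 104 ± 2.68 and 94.0 ± 3.28 TPM (SD, n = 3 each). UBE2B and UBE2A, the paired RAD6 enzymes of DNA damage tolerance, differed in how far they moved. UBE2B fell from 211 ± 4.99 to 120 ± 3.37 TPM and UBE2A from 74.5 ± 0.960 to 65.6 ± 1.57 TPM (SD, n = 3 each). UBE2T, the E2 of the Fanconi anemia pathway, had 75.3, 78.0 and 80.9 TPM and 76.3, 77.8 and 74.8 TPM, with overlapping groups (log2 difference -0.03 ± 0.03, limma adjusted p = 0.380). The small negative differences of UBE2A, UBE2N and UBE2T turned positive under both scalings, and all 3 genes were then called higher. For UBE2T the limma adjusted p was 1.46e-05 after median centring and 0.000814 with quantile normalization. UBE2B and UBE2V1 stayed lower and UBE2V2 higher.

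**Figure D3:**
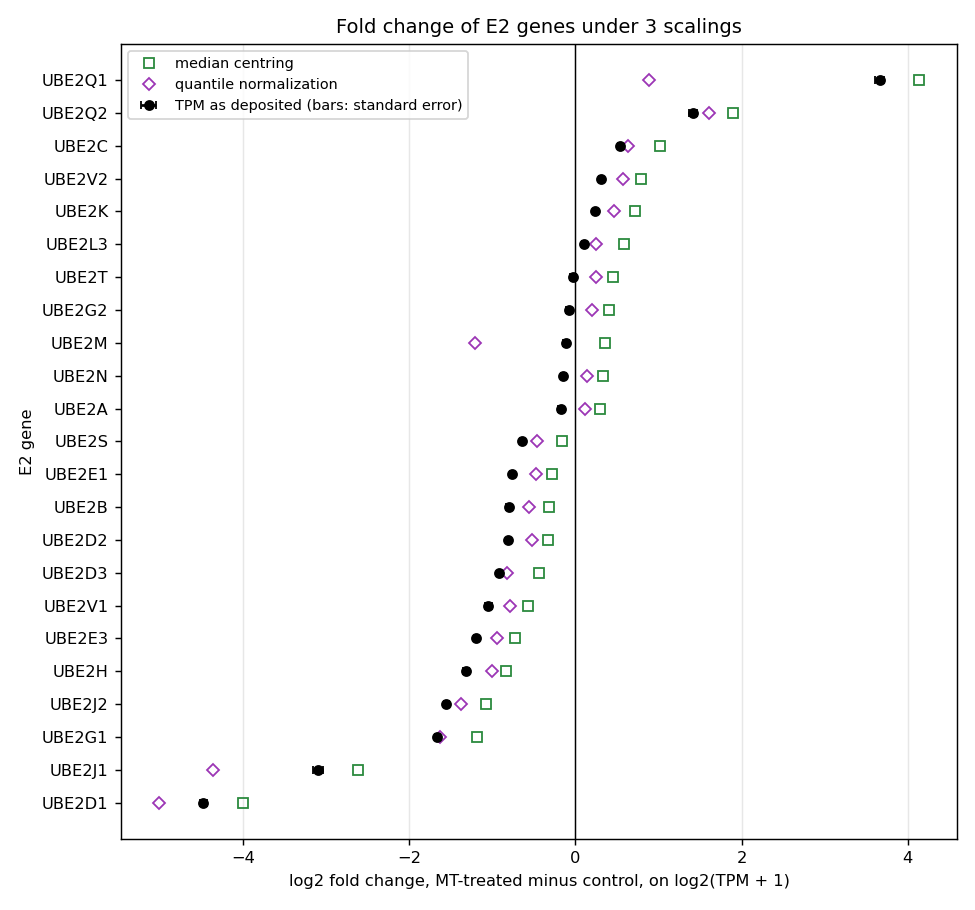
Difference between MT-treated and control blastocysts on the log2(TPM + 1) scale for 23 tested E2 genes above 0 in all libraries, with deposited TPM (black, bars are standard errors), median centring (squares) and quantile normalization (diamonds). UBE2D1 and UBE2J1 lay furthest to the left and UBE2Q1 and UBE2Q2 furthest to the right with deposited TPM, and the points of UBE2A, UBE2G2, UBE2N, UBE2T and UBE2M fell on both sides of 0.

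The group of E2 genes for ubiquitin-like modifiers was scarce, with UBE2M as its most abundant gene. UBE2M, an E2 of NEDD8, had 14.7, 14.97 and 15.7 TPM and 13.6, 13.8 and 14.1 TPM. Its small fall (log2 difference -0.12 ± 0.03, limma adjusted p = 0.0157) did not hold without control replicate 3 (adjusted p = 0.0509), turned into 0.36 after median centring and deepened to -1.21 with quantile normalization. UBE2Z, which takes its ubiquitin from UBA6, was at 0 in control and at 1.70, 1.62 and 1.61 TPM in MT-treated libraries. UBE2L6, the E2 of ISG15, was at 0 in all 6 libraries, whereas ISG15 itself was at 0 in control and at 93.2, 88.9 and 91.5 TPM after MT treatment.

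Of the remaining genes, UBE2Q1 and UBE2Q2 were tested and were higher, as were 61.6% of all tested genes, and UBE2Q1 could enter the test only by being higher in MT-treated libraries. UBE2Q2 rose 2.71-fold from 31.0, 29.8 and 27.5 TPM to 79.2, 81.2 and 79.6 TPM (log2 difference 1.41 ± 0.05, limma adjusted p = 2.34e-07). UBE2Q1 was barely detected in control at 0.04, 0.04 and 0.05 TPM and had 13.2, 11.8 and 11.7 TPM in MT-treated libraries. Its log2 difference of 3.66 depended on the processing, at 0.88 with quantile normalization and 6.42 with a pseudocount of 0.1. UBE2O, a large enzyme that acts as both E2 and E3, was at 0 in control and at 0.660, 0.650 and 0.750 TPM in MT-treated libraries, below the level required for testing.

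The E2 genes listed at 0 in control were counted by their level in the MT-treated libraries, beside the tested genes above 0 in at least 1 MT-treated library. With an MT-treated mean of 50 TPM or more, 0 of 15 tested E2 genes were at 0 in all control libraries, against 5.67% of those genes at that level. At 10 to 50 TPM it was 2 of 9 (UBE2D4 and UBE2W), against 37.2%. At 2 to 10 TPM it was 2 of 2 (UBE2E2 and UBE2R2), against 52.2%, and below 2 TPM it was 1 of 3 (UBE2Z), against 33.3%. A listed 0 does not tell an absent transcript from one that was not captured or not counted, and the part of library depth in these rises was not tested.

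The balance within subfamilies was then described as the share of each gene in the summed TPM of its pair or family. A common factor for a whole library leaves this share as it is. Quantile normalization is not such a factor and can change the shares, which were computed from deposited TPM only. The UBE2V1 share was 58.9%, 58.7% and 56.9% in control and 34.6%, 35.2% and 35.3% in MT-treated libraries. The UBE2J1 share of the UBE2J pair went from 58.0% ± 1.02 to 31.2% ± 1.73, and the UBE2G1 share of the UBE2G pair from 62.1% ± 0.624 to 34.6% ± 1.38 (SD, n = 3 each). UBE2C made up 56.7% ± 0.103 of the UBE2C and UBE2S sum in control and 74.8% ± 0.704 in MT-treated blastocysts (SD, n = 3 each). Thus UBE2V2, UBE2J2 and UBE2G2 were the minor partners in every control library and the major ones in every MT-treated library, while UBE2C held the larger share in all 6. In the UBE2E family the leading gene also changed, with UBE2E3 at 56.9% ± 0.542 and UBE2E1 at 43.1% ± 0.542 in control, and UBE2E3 at 47.8% ± 0.461 and UBE2E1 at 49.1% ± 0.275 after MT treatment (SD, n = 3 each). In the UBE2A and UBE2B pair, UBE2A held 26.1% ± 0.681 and 35.3% ± 1.18, and in the UBE2Q pair UBE2Q1 held 0.148% ± 0.0289 and 13.2% ± 0.863 (SD, n = 3 each). With quantile normalization, however, UBE2Q1 rose less than UBE2Q2 (log2 differences 0.88 and 1.61), so the gain in the UBE2Q1 share depends on the processing. The dominant member of the UBE2D family did not shift, with a UBE2D3 share of 80.8% ± 0.341 in control and 81.0% ± 0.0859 in MT-treated blastocysts and overlapping groups, while UBE2D1 went from 5.44% ± 0.172 to 0.288% ± 0.0149 and UBE2D4 from 0 to 3.95% ± 0.0942 (SD, n = 3 each). No test was run on the shares.

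**Figure D4:**
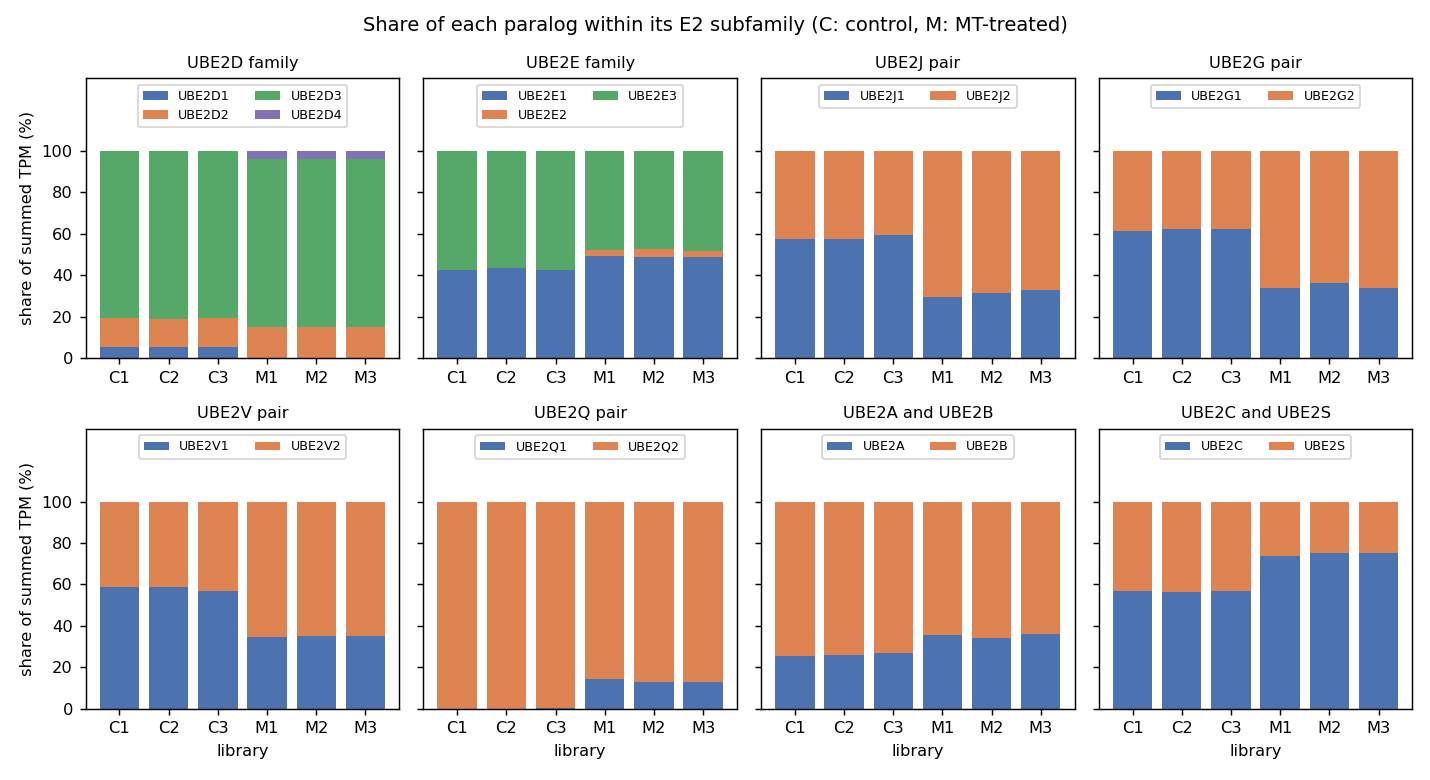
Share of each gene in the summed TPM of its subfamily or pair (vertical axis, %), 1 bar per library, with control (C1 to C3) on the left and MT-treated (M1 to M3) on the right of each panel. UBE2J1, UBE2G1 and UBE2V1 were the larger members of their pairs in control and the smaller ones in MT-treated libraries, while the UBE2D3 share was level across all 6.

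E2 and E2-like genes with other names included 7 tested genes, of which 6 were higher and none lower, against 61.6% and 34.1% of all tested genes. Of these, AKTIP and ATG10 reached 1 TPM only in MT-treated libraries, so they could enter the test only by being higher there. ATG3, the E2-like enzyme of autophagy, rose from 30.8 ± 0.627 to 99.1 ± 1.21 TPM, and TSG101, an E2 variant of endosomal sorting, from 97.9 ± 0.291 to 128 ± 3.47 TPM (SD, n = 3 per group). AKTIP, another variant, had 0.150, 0.120 and 0.0400 TPM in control and a mean of 37.1 TPM after MT treatment, and ATG10 was at 0 in control with a mean of 19.1 TPM after MT treatment. BIRC6, a giant enzyme with E2 activity, rose from 6.19 ± 0.182 to 14.0 ± 0.344 TPM (SD, n = 3 each) but was lower under quantile normalization. CDC34, the closest relative of UBE2R2, had 41.9 ± 2.47 and 38.9 ± 0.295 TPM (SD, n = 3 each) and did not pass the test (limma adjusted p = 0.0614), but it was called higher after median centring (log2 difference 0.38) and with quantile normalization (0.17).

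Upstream of the E2 enzymes, 4 of 9 tested E1 genes were higher and 5 lower (61.6% and 34.1% of all tested genes). UBA1, the main E1 of ubiquitin, rose from 23.6 ± 0.152 to 41.4 ± 0.940 TPM, and UBA6, the alternative E1 that charges UBE2Z, fell from 21.1 ± 0.962 to 7.56 ± 1.01 TPM (SD, n = 3 each). Both parts of the SUMO E1 rose, UBA2 from 8.98 ± 0.202 to 57.9 ± 0.719 TPM and SAE1 from 56.4 ± 0.501 to 85.1 ± 0.173 TPM (SD, n = 3 each). Both parts of the NEDD8 E1 fell, UBA3 from 132 ± 1.34 to 33.4 ± 1.18 TPM and NAE1 from 83.3 ± 2.76 to 56.7 ± 1.64 TPM (SD, n = 3 each). MOCS3, the E1-like enzyme of URM1, had 10.8, 9.61 and 11.5 TPM in control and 0 in every MT-treated library, so it could be called only lower. The directions of UBA1, UBA2, SAE1, UBA3, NAE1, UBA6 and MOCS3 were the same under both scalings, although the fall of NAE1 did not pass the test after median centring (limma adjusted p = 0.120).

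Of the 12 modifier genes, 5 were higher and 7 lower with deposited TPM (61.6% and 34.1% of all tested genes), 11 were higher and 1 lower after median centring (70.4% and 25.4%), and 5 were higher and 5 lower with quantile normalization (55.3% and 38.5%). UBB and RPS27A, which encode ubiquitin, were among the most abundant here. UBB went from 4399 ± 32.7 to 3425 ± 67.5 TPM and RPS27A from 2245 ± 25.5 to 2045 ± 41.1 TPM (SD, n = 3 each), and both falls became a rise after median centring. NEDD8 rose 3.60-fold, from 96.6 ± 0.642 to 348 ± 4.35 TPM (SD, n = 3 each), while UBE2M, its E2 gene, was 1.09-fold lower (higher after median centring). SUMO3 fell from 121 ± 1.84 to 46.4 ± 0.891 TPM (SD, n = 3 each). URM1 was at 0 in control and averaged 50.6 TPM after MT treatment. Like ISG15, it could enter the test only by being higher in MT-treated libraries. NEDD8, ISG15 and URM1 stayed higher and SUMO3 lower under both scalings.

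**Figure D5:**
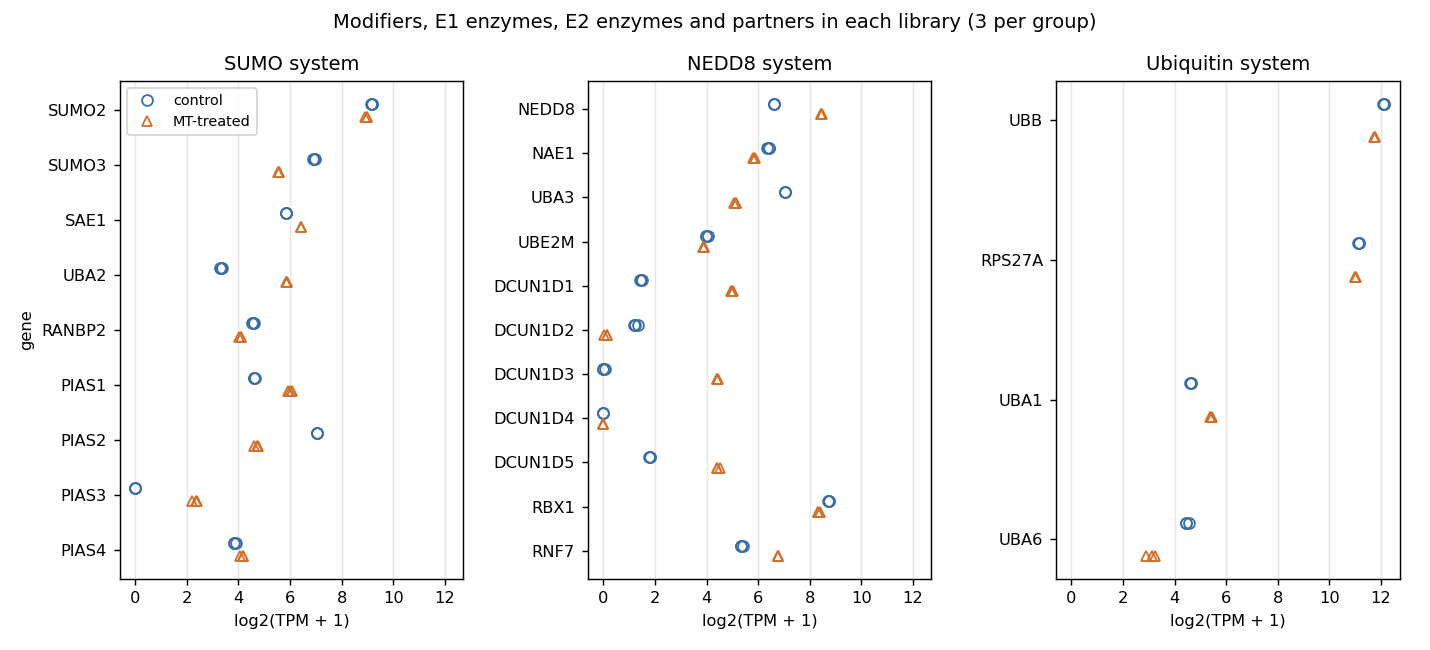
Levels as log2(TPM + 1) of the modifiers, E1 genes, E2 genes and partners of the SUMO, NEDD8 and ubiquitin systems, with circles for the 3 control and triangles for the 3 MT-treated libraries. In the NEDD8 panel NEDD8 was higher and UBA3 and NAE1 lower in MT-treated libraries while UBE2M stayed between 13.6 and 15.7 TPM, and in the SUMO panel UBA2 was higher and SUMO3 and PIAS2 lower.

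The RING and cullin partners included 15 tested genes, of which 6 were higher and 9 lower (61.6% and 34.1% of all tested genes), whereas median centring gave 8 higher and 6 lower (70.4% and 25.4%). Some of the higher ones, MDM2 among them, reached 1 TPM only in MT-treated libraries and could enter the test only by being higher there. RBX1, the RING subunit that docks UBE2M and UBE2R2 on cullins, fell from 422 ± 0.839 to 324 ± 9.54 TPM (SD, n = 3 each), which became a rise of 0.09 on the log2 scale after median centring. RNF7, its relative on CUL5, rose from 40.0 ± 1.25 to 108 ± 0.980 TPM, while CUL5 fell from 61.6 ± 1.95 to 6.23 ± 0.130 TPM (SD, n = 3 each). RAD18, the ligase that works with UBE2A and UBE2B, fell from 62.1 ± 1.03 to 19.3 ± 0.121 TPM, and RNF8, which works with UBE2N, from 87.1 ± 1.51 to 53.2 ± 2.58 TPM (SD, n = 3 each). RNF4, which targets proteins that carry SUMO, rose from 2.80 ± 0.0611 to 42.5 ± 2.27 TPM (SD, n = 3 each). MDM2, a ligase of p53, was at 0 in control with a mean of 34.6 TPM after MT treatment. Of 10 tested SUMO and NEDD8 ligases and regulators, 7 were higher and 3 lower, near the 61.6% and 34.1% of all tested genes. Some of the higher ones, DCUN1D3 among them, reached 1 TPM only in MT-treated libraries and could be called only higher. DCUN1D2 reached 1 TPM only in control and could be called only lower. DCUN1D1 and DCUN1D3, which help UBE2M to modify cullins, rose from 1.75 ± 0.0709 to 30.7 ± 0.710 TPM and from 0.0133 ± 0.0231 to 20.4 ± 0.242 TPM, whereas DCUN1D2 fell from 1.40 ± 0.118 to 0.0800 ± 0.0436 TPM (SD, n = 3 each). PIAS2, a SUMO ligase, fell from 130 ± 0.863 to 24.9 ± 1.12 TPM (SD, n = 3 each). Apart from RBX1, the directions given for these partner genes were the same under both scalings.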

How the data were processed

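RNA of 6 libraries, 3 control and 3 MT-treated, was sequenced by the authors. The submitters' processing notes name FastQC 0.11.9, STAR 2.7.9a, featureCounts (Subread 1.6.3) and DESeq2. The notes give the build as ARS-UCD1.2 and the study's methods as ARS-UCD1.3. The methods name Smart-seq2 and the labels a TruSeq kit. The authors deposited TPM per gene, rounded to 2 decimals, and how counts became TPM is not given in the sources used here, so DESeq2 was not run. Columns were matched to samples by the labels.

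TPM were transformed to log2(TPM + 1) and fitted by limma 3.58.1 in R 4.3.3 (lmFit, eBayes with trend) on all genes with at least 1 TPM in at least 3 libraries, with a threshold of 0.05 on the adjusted p-value. The fit was tested on simulated data. Shares, sums and figures were made with Python 3.11.15, pandas 2.3.3, numpy 2.4.6 and matplotlib 3.10.9. A few genes that enter the counts are not reported here by name or value. Members and lists were chosen with earlier results of these data known, and from each partner list up to 2 called genes at each end of the differences were named, with UBB, RPS27A, UBA1, NEDD8 and CDC34. ATG3, UBA6, SAE1, NAE1, ANAPC11, RBX1, RNF7, RAD18, RNF8 and AUP1 were named in addition, after their values were seen. No sequences were used here.

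The fit was repeated with a pseudocount of 0.1, without the filter, with at least 5 TPM, with quantile normalization, median centring, eBayes without trend, a replicate block and each library left out. The main fit was unpaired. A further fit, restricted to genes detected in each library, was chosen after seeing the data.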

Additional observations from a re-analysis of the deposited data

How the results depend on the processing

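With a pseudocount of 0.1, without the filter, with a minimum of 5 TPM (which dropped UBE2Z among others) or without the trend, the counts of E2 genes in each direction stayed within 1.5 times their values and no call of an E2 gene still tested was lost. After median centring 17 E2 genes were higher, 4 rather than 7 were lower by at least 2-fold, and the median difference was 0.36. With quantile normalization the median was 0.11. Restricted to genes above 0 in all libraries, 7 were higher, 2 by at least 2-fold, and the median was -0.41, since the restriction removes the genes listed at 0 in control. Among the E2 genes described, those that changed direction were UBE2A (0.30 with centring, 0.11 with quantile normalization), UBE2G2 (0.40 and 0.20), UBE2N (0.33 and 0.14), UBE2T (0.45 and 0.25) and UBE2M (0.36 with centring). By the study's methods, oocytes of each run were pooled, allocated at random and given all treatments side by side, so the groups may share production runs. Same-numbered libraries of the 2 groups are not stated to come from the same production run, and their deviations correlated across genes by -0.01, -0.00068 and 0.06. With the replicate block 12 E2 genes were higher and 15 lower, UBE2G2 was no longer called (adjusted p = 0.0640, limma), and no other call of the E2 genes described changed. With single libraries left out, 11 to 12 E2 genes were higher, 14 to 16 lower, and 7 passed 2-fold in each direction, with medians from -0.14 to -0.09. TPM holds no counts, so counting error is unknown, most of all below a few TPM.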

Other observations

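Ligases that take ubiquitin from UBE2L3 and the UBE2D enzymes were described in addition. Of 14 tested HECT and RBR ligases, 8 rose and 6 fell after MT treatment, near the 61.6% higher and 34.1% lower among all tested genes. Most of the higher ones, ARIH2 among them, reached 1 TPM only in MT-treated libraries and could enter the test only by being higher there. NEDD4 reached 1 TPM only in control and could be called only lower. ARIH2, an RBR ligase of cullin complexes, was at 0 in control and at 24.0, 24.2 and 24.9 TPM after MT treatment. HUWE1, a very large HECT ligase, fell from 84.9 ± 3.60 to 17.4 ± 1.22 TPM, and NEDD4, a HECT ligase of membrane proteins, from 1.38 ± 0.195 to 0.02 ± 0.0265 TPM (SD, n = 3 each). The directions of ARIH2, HUWE1 and NEDD4 held under median centring and quantile normalization.

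Among 7 tested ligases and E2 recruiters of the ER, 4 were higher and 2 lower, which is near the same shares. Most of the higher ones, MARCHF6 and SYVN1 among them, reached 1 TPM only in MT-treated libraries and could enter the test only by being higher there. MARCHF6 was at 0 in control and at 38.2, 44.0 and 46.8 TPM after MT treatment, and SYVN1, the central ligase of the pathway, had 0, 0.05 and 0.05 TPM in control and 14.1, 15.2 and 15.8 TPM after MT treatment. RNF5 fell from 65.4 ± 1.57 to 12.9 ± 1.0027 TPM and SEL1L, the partner of SYVN1, from 16.5 ± 0.332 to 8.94 ± 0.618 TPM (SD, n = 3 each). AUP1, which recruits UBE2G2, had 112 ± 3.72 and 108 ± 2.24 TPM (SD, n = 3 each) and did not pass the test (limma adjusted p = 0.124). MARCHF6, SYVN1, RNF5 and SEL1L kept their direction under both scalings, and AUP1 was higher under both.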
